A study of Mus musculus with 14 samples.

Results

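The BCL-2 family decides at the outer mitochondrial membrane whether a cell lives or dies, and its RNA was examined in activated mouse CD4+ T cells that lacked the histone deacetylase HDAC1, alone or together with a single allele of HDAC2. The 10 members were listed by name, with earlier results of these data known. They are the pro-survival genes Bcl2, Bcl2l1 and Mcl1, the effector genes Bax and Bak1, and the BH3-only genes Bcl2l11, Bid, Bbc3, Pmaip1 and Bmf. Of these, 9 had a value in the 8 samples of one experiment, where 14672 genes were tested, and 10 had a value in the 6 samples of the other, where 13558 genes were tested.

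In the first experiment 4 WT samples were compared with 4 samples from mice with the genotype Hdac1 fl/fl Hdac2 fl/+ Cd4-Cre, called HDAC1cKO-HDAC2HET. Sorted naive cells were cultured for 3 days on antibodies to CD3 and CD28 with added IL-2 and without polarizing cytokines. In the second experiment 3 WT samples were compared with 3 samples from Hdac1 fl/fl Cd4-Cre mice, called HDAC1cKO, whose cells, after the same culture, were given a second stimulus through CD3 lasting 12 hours. The mice were on a C57BL/6 background and 6 to 12 weeks old, and the study used both sexes. Cd4-Cre deletes from an immature stage that also gives rise to CD8+ cells, so all alpha-beta T cells of these mice carry the deletions. Per the labels, RNA of both experiments came from cells sorted as viable. Because histone deacetylases remove acetyl groups from histones, the comparison asks which survival and death genes differ in RNA level when HDAC1 is absent and HDAC2 is reduced.

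Proteins of this family act by binding one another. BCL-2, BCL-XL (the product of Bcl2l1) and MCL-1 hold BAX and BAK in check, and the BH3-only proteins, which sense stress, lack of growth factor or death receptor signals, bind the pro-survival proteins or activate the effectors. BAX and BAK then open the outer mitochondrial membrane, cytochrome c is released, and APAF1 and caspase-9 start the caspase cascade. In T cells BIM (Bcl2l11) is known for the death of activated cells at the end of a response, BCL-2 is maintained by IL-7, and MCL-1 is needed for survival at most stages.

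The targeted genes matched the labels. Hdac1 lay between 76.3 and 79.6 FPKM (fragments counted on a transcript, scaled to its length and to the size of the library) in WT and between 6.65 and 10.7 FPKM in HDAC1cKO-HDAC2HET samples, and Hdac2 between 58.2 and 60.3 FPKM against 34.03 and 37.0 FPKM. In the restimulated cells Hdac1 fell from 72.3 to 81.1 FPKM in WT to 8.52 to 12.1 FPKM in HDAC1cKO, whereas Hdac2 lay between 62.4 and 78.2 FPKM in WT and between 74.8 and 88.1 FPKM in HDAC1cKO samples. Cd4 was at 160.3 FPKM or more in every sample, and the 5 T cell markers summed to between 865.8 and 1165 FPKM. Within that sum members moved apart in HDAC1cKO-HDAC2HET samples without overlap, as Cd4 went from 208.1 to 217.7 FPKM in WT to 160.3 to 168.1 FPKM, Cd3e from a mean of 199.4 to 135.2 FPKM and Lck from 284.9 to 220.1 FPKM, while Thy1 went from 186.1 to 351.6 FPKM. Their part in the results was not tested. The summed CD8 markers Cd8a and Cd8b1 moved with genotype, from 3.28 to 5.96 FPKM in WT to 11.7 to 15.2 FPKM in HDAC1cKO-HDAC2HET samples and from 3.80 to 4.86 to 6.52 to 7.30 FPKM in the second experiment, with Cd8a itself at 0.574 FPKM or less everywhere. The 2 B cell markers Cd79a and Ms4a1 summed to between 0.214 and 0.569 FPKM in 3-day WT and between 0.431 and 0.895 FPKM in HDAC1cKO-HDAC2HET samples, and to 0.41 FPKM or less in the second experiment. Of the myeloid, NK and red cell markers with a value none exceeded 0.0738 FPKM. Libraries held an estimated 24700000 to 58600000 fragments. All 8 samples of the first experiment expressed Xist, at 58.9 to 65.2 FPKM in WT and 26.04 to 33.7 FPKM in HDAC1cKO-HDAC2HET samples. In the second experiment sex and genotype were unbalanced: Xist was at 42.9 and 33.2 FPKM in WT replicates 1 and 3 and at 0.0435 FPKM or less in the other 4 samples, and WT replicate 3 also held the Y-linked Ddx3y at 1.93 FPKM.

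In HDAC1cKO-HDAC2HET cells 7 of the 9 members with a value changed, 2 of them upwards and 5 downwards. All 3 pro-survival genes fell, Bcl2l11 and Bbc3 fell, Bid and Bmf rose, and Bak1 and Pmaip1 did not pass the test. The median log2 fold change of the 9 members was -0.28, against -0.04 over all genes tested. Since the members were chosen with earlier results known, this is a description only. Much of the transcriptome differed between the genotypes: 51.8% of all genes tested passed, 24.2% higher and 27.6% lower, so a call by itself sets no member apart. Centring each sample on its median turned the split of all called genes from 3553 higher and 4048 lower to 4353 and 3169, and it kept the direction of every member. A change of at least 2-fold was rarer, at 11.3% of all genes tested, and Bid and Bmf reached it. A gene passed at an adjusted p of at most 0.05 in limma with Benjamini-Hochberg adjustment over all genes tested, on the log2(FPKM + 0.1) scale, which understates the change of low genes. In RNA from bulk cells, a change in the mix of cells and a change of RNA per cell cannot be told apart.

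**Figure D1:**
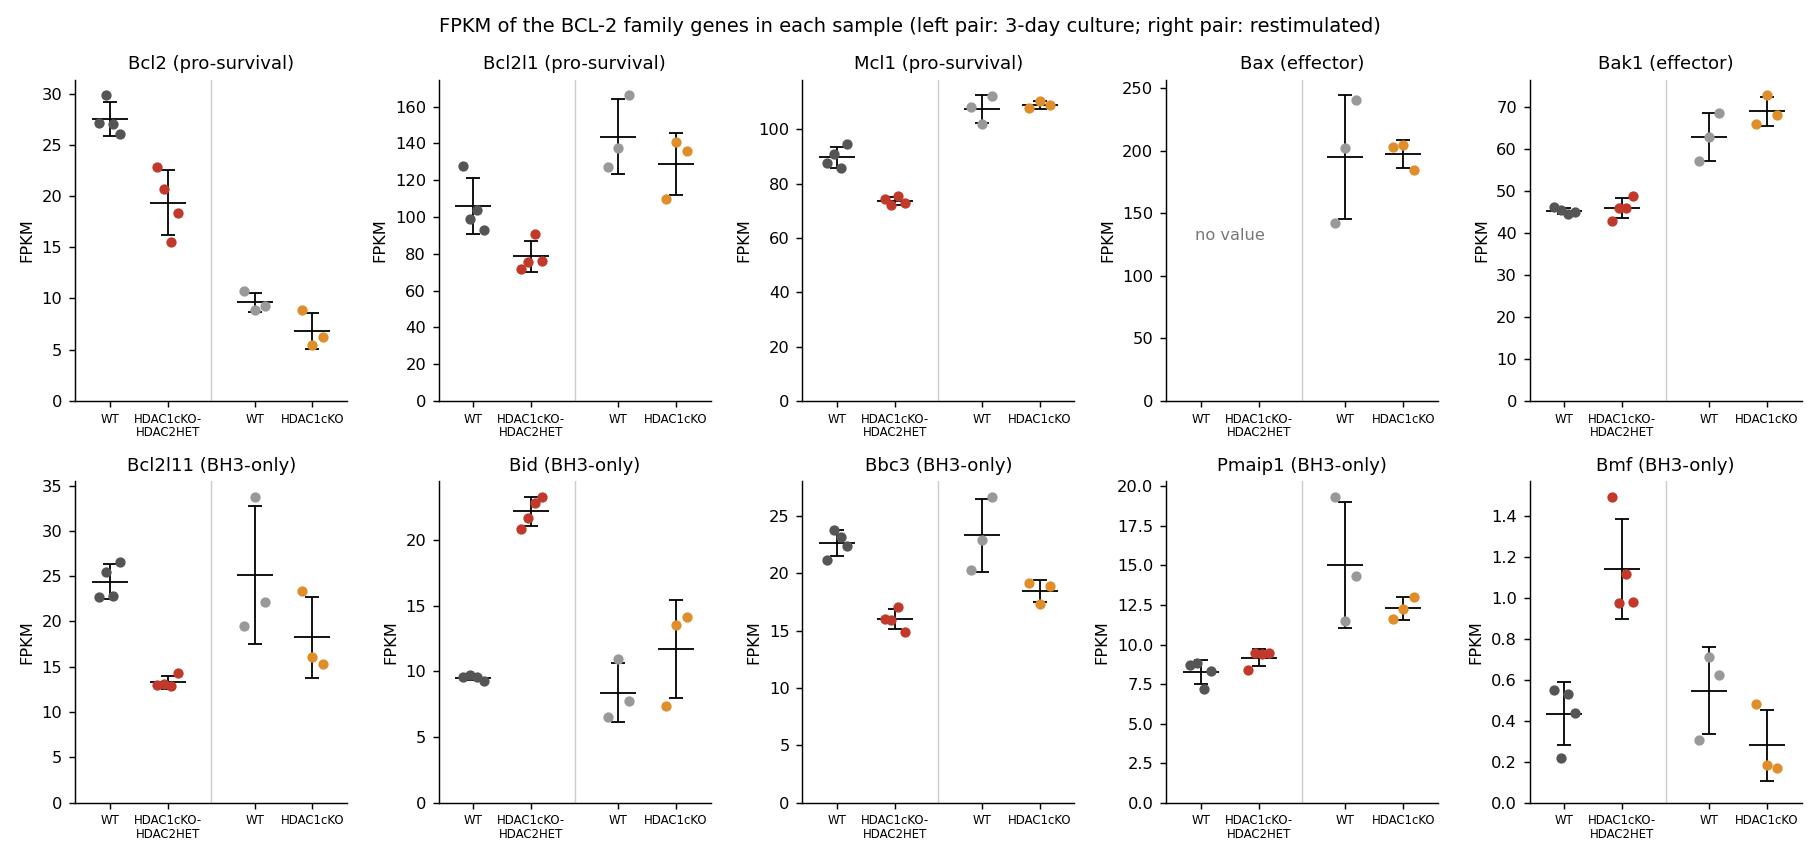
FPKM of each member in each sample (y axis, linear and starting at 0) by group (x axis); points are samples, horizontal lines the mean and error bars the SD (n = 4 per group on the left, n = 3 on the right). Bid separated most clearly, with the 4 HDAC1cKO-HDAC2HET samples between 20.9 and 23.3 FPKM and the 4 WT samples between 9.24 and 9.68 FPKM, and Bax has no value on the left.

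Bid and Bcl2l11 were the 2 members with the smallest adjusted p, and they moved in opposite directions. The 250 bases before the RefSeq start of each, in build GRCm38.p6, are shown to give the sequence context of these changes, beside those of Bcl2, a pro-survival gene that fell. Capitals mark the GC box GGGCGG on either strand, the motif of SP family factors, which are known partners of HDAC1, and the motif GTAAACA, which FOXO factors bind. Bid lies at chr6:120891930-120916853 on the minus strand, Bcl2l11 at chr2:128126038-128162547 on the plus strand and Bcl2 at chr1:106538178-106714274 on the minus strand, and the printed windows are chr6:120916825-120917074, chr2:128125788-128126037 and chr1:106714291-106714540, each 5′ to 3′ on the strand of its gene. Where a gene had several RefSeq starts, as Bcl2l11 has, the most 5′ was taken, and overlapping matches were counted each.
Bid: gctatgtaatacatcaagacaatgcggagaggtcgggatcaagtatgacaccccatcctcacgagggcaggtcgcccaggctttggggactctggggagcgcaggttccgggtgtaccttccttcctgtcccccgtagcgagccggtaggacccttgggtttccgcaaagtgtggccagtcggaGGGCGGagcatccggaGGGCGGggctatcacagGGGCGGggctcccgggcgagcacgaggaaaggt
Bcl2l11: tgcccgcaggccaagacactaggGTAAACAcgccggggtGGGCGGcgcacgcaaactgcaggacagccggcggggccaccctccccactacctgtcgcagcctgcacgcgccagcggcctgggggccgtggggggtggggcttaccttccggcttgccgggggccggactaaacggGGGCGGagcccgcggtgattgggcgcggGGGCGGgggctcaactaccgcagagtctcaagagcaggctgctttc
Bcl2: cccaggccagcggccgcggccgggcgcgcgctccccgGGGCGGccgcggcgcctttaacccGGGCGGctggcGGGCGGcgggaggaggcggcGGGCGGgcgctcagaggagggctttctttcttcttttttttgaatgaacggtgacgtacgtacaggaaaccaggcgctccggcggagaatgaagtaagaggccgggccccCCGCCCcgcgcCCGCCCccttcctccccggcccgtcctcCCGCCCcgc

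GC boxes stood in all 3 windows, 3 of them before Bid, 3 before Bcl2l11 and 7 before Bcl2. Their part in the changes was not tested. The window before Bcl2l11 also held 1 FOXO motif. Among the windows of the same length before all 32851 RefSeq starts, 32.7% held at least 1 GC box and 3.17% at least 1 FOXO motif. Windows of 9 members could be searched, of which those of Bax (2), Bbc3 (5) and Mcl1 (1) also held GC boxes and those of Bak1, Bcl2l1 and Bmf held none. GC content was 63.6% before Bid, 72.0% before Bcl2l11 and 74.8% before Bcl2, against a median of 52.4% over all windows. A motif match is a description of the letters and not a measured binding site.

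Among the pro-survival genes, Bcl2 was at 27.2, 29.9, 27.1 and 26.1 FPKM in the WT samples and at 22.9, 20.7, 15.5 and 18.4 FPKM in the HDAC1cKO-HDAC2HET samples. The groups did not overlap, and the mutant samples spread more widely than the WT samples. The mean fell from 27.5 ± 1.64 to 19.4 ± 3.17 FPKM (SD, n = 4), and limma put the log2 fold change at -0.52 ± 0.12 (SE, adjusted p = 0.00616). The Bcl2 locus also holds the antisense transcript D630008O14Rik. Bcl2l1, which had the highest mean among the 9 members with a value, was at 127.9, 98.9, 103.7 and 93.1 FPKM in WT and at 71.8, 75.6, 90.8 and 76.3 FPKM in HDAC1cKO-HDAC2HET samples. Here the highest mutant and the lowest WT sample lay close together, although the groups still did not overlap, and the log2 fold change was -0.42 ± 0.11 (limma adjusted p = 0.0136). Mcl1, whose product is turned over rapidly, was tighter, at 87.6, 90.8, 85.9 and 94.6 FPKM in WT and 74.4, 72.2, 75.3 and 72.8 FPKM in mutant samples. Its fall was the smallest of the 5 (log2 fold change -0.28 ± 0.03, limma adjusted p = 0.000286). Centring each sample on its median gave -0.19 for Mcl1, with the call kept.

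The summed FPKM of the 3 pro-survival genes was 223.1 ± 13.2 in WT and 171.7 ± 6.63 in HDAC1cKO-HDAC2HET samples (SD, n = 4). The share of each gene in that sum moved less. Bcl2 made up 12.4% ± 0.99 of it in WT and 11.3% ± 2.14 in mutant samples, Bcl2l1 47.3% ± 4.02 and 45.7% ± 3.14, and Mcl1 40.3% ± 3.4 and 43.0% ± 1.09. Each of these 3 shares overlapped between the genotypes.

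Of the effectors, Bak1 lay between 44.5 and 46.3 FPKM in WT and between 42.9 and 48.8 FPKM in HDAC1cKO-HDAC2HET samples. The WT samples fell inside the range of the mutant samples, and the log2 fold change was 0.02 with a 95% interval of -0.07 to 0.11 (limma adjusted p = 0.73). Its sign turned to -0.03 with quantile normalization. Bak1 shares its locus with Ggnbp1 on the opposite strand. Bax could not be separated from its neighbours in these 8 samples, because Cufflinks joined it to Dhdh in a locus of 27109 to 27296 bases, of which Bax makes up 5202. The joint locus was at 187.3, 208.5, 185.5 and 194.8 FPKM in WT and 190.3, 211.1, 200.3 and 212.3 FPKM in mutant samples. These are values of the joint locus and not of Bax, and they overlapped between genotypes (exact permutation test, 2-sided, p = 0.257).

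The BH3-only genes changed in both directions. Bid, which death receptor signals cleave to tBID and which links them to mitochondria, was at 9.53, 9.68, 9.58 and 9.24 FPKM in the WT samples and at 20.9, 21.7, 22.8 and 23.3 FPKM in the HDAC1cKO-HDAC2HET samples. The 2 groups were far apart compared with the spread within either. The mean rose from 9.51 ± 0.19 to 22.2 ± 1.1 FPKM (SD, n = 4), which is 2.33-fold (log2 fold change 1.21 ± 0.04 SE, limma adjusted p = 1.15e-06). The 3′ end of Bid overlaps Bcl2l13, which moved the other way, from 11.6 ± 0.08 to 9.61 ± 0.36 FPKM (log2 fold change -0.27, limma adjusted p = 0.000419).

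Bcl2l11, which encodes BIM, was at 22.7, 25.5, 22.8 and 26.5 FPKM in WT and at 12.98, 13.04, 12.8 and 14.3 FPKM in HDAC1cKO-HDAC2HET samples. Every mutant sample lay well below every WT sample. The log2 fold change was -0.87 ± 0.06 (SE; limma adjusted p = 2.21e-05), the largest fall among the members. Bbc3, the gene of PUMA and a target of p53, was at 21.2, 23.8, 23.2 and 22.4 FPKM in WT and 16.1, 16.0, 17.1 and 14.9 FPKM in mutant samples, again without overlap (log2 fold change -0.50 ± 0.05, limma adjusted p = 0.000128).

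Pmaip1, which encodes NOXA, a binder of MCL-1, lay between 7.17 and 8.85 FPKM in WT and between 8.36 and 9.49 FPKM in mutant samples. The groups overlapped and the log2 fold change of 0.15 ± 0.08 did not pass (limma adjusted p = 0.14), whereas median centring gave 0.25 and quantile normalization 0.24, both past the threshold (limma adjusted p = 0.0366 and 0.0359). Bmf, whose product binds pro-survival proteins after release from the cytoskeleton, was the least abundant member, at 0.551, 0.216, 0.532 and 0.436 FPKM in WT and 1.49, 0.974, 1.11 and 0.981 FPKM in mutant samples. The groups did not overlap, and the mean was 2.63-fold higher. The log2 fold change was 1.25 ± 0.26 (limma adjusted p = 0.00432), and it shrank to 0.58 with a pseudocount of 1 in place of 0.1, with the call kept.

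**Figure D2:**
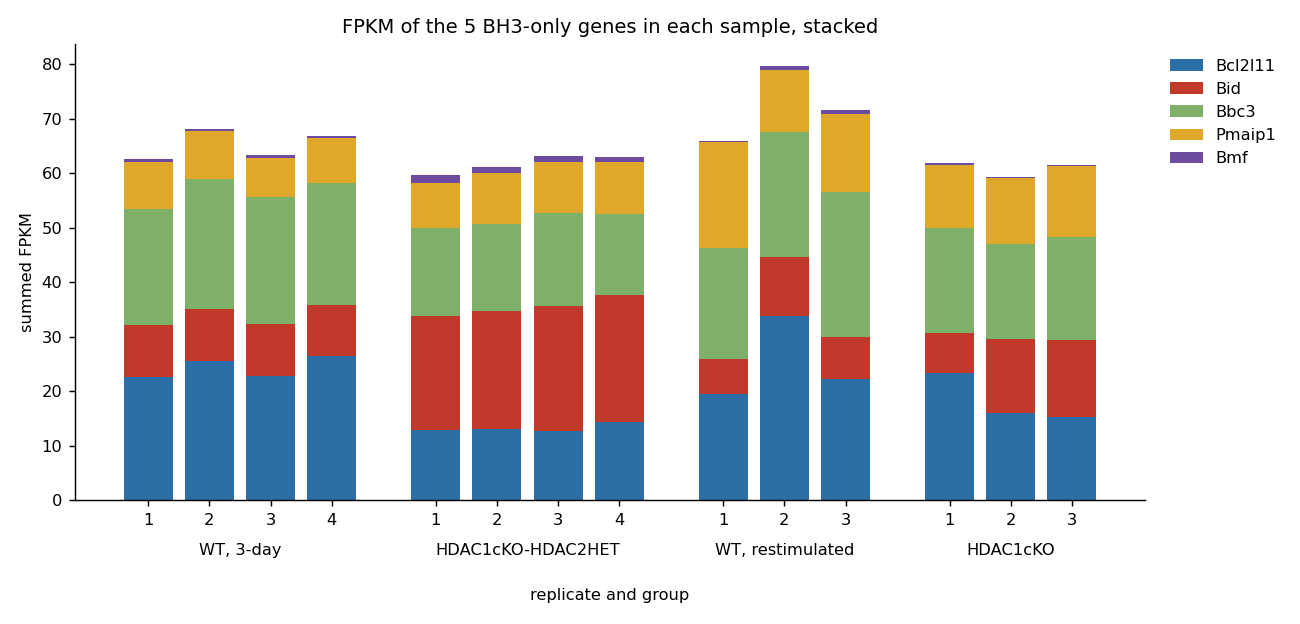
FPKM of the 5 BH3-only genes stacked for each sample (y axis, summed FPKM, from 0; x axis, replicate and group). In every 3-day WT sample Bcl2l11 (blue) is larger than Bid (red), in every HDAC1cKO-HDAC2HET sample Bid is larger, and the height of the bars is between 62.7 and 68.1 FPKM in WT and between 59.7 and 63.2 FPKM in mutant samples.

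In the first experiment the total of the BH3-only genes moved little while its make-up turned over. Summed, the 5 genes were at 65.2 ± 2.65 FPKM in WT and 61.8 ± 1.64 FPKM in HDAC1cKO-HDAC2HET samples (SD, n = 4), and the 2 groups overlapped. Bcl2l11 made up 37.3% ± 1.66 of the sum in WT and 21.5% ± 1.02 in mutant samples, Bbc3 34.7% ± 1.41 and 25.9% ± 1.55, and Bid 14.6% ± 0.69 and 35.9% ± 0.88. The ratio of Bcl2l11 to Bid went from 2.57 ± 0.23 to 0.60 ± 0.03 and did not overlap between genotypes. The ratio of pro-survival to BH3-only RNA was 3.43 ± 0.31 in WT and 2.78 ± 0.09 in mutant samples, again without overlap. In the restimulated cells the mean of that ratio moved the other way, with overlap. It was 3.62 ± 0.46 in WT and 4.02 ± 0.34 in HDAC1cKO samples (SD, n = 3). The BH3-only sum there was 72.4 ± 6.93 FPKM in WT and 61.0 ± 1.37 FPKM in HDAC1cKO samples, without overlap. These sums and ratios were put together from members with known changes and are given as a description, with no test. They weigh each RNA alike, although the proteins differ in affinity and stability.

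The order of the levels changed accordingly. Among the 9 members with a value, Bax being absent from this order, in 3-day WT cells Bcl2l1 (105.9 FPKM) and Mcl1 (89.7 FPKM) stood highest and overlapped each other, Bak1 followed without overlap, and Bcl2, Bcl2l11 and Bbc3 formed a run in which each overlapped the next. Bid, Pmaip1 and Bmf followed in that order with no overlap between neighbours. In HDAC1cKO-HDAC2HET cells the first 3 places were the same, Bid took the fourth place with a range that overlapped Bcl2 and not Bak1, and Bcl2l11 dropped to the seventh place, above Pmaip1. Of the 9 members with a value, 7 did not overlap between genotypes, and 50.4% of all genes tested did not. Each of those 7 gave an exact permutation p of 0.0286 (2-sided), the smallest that 4 against 4 samples can give.

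In the restimulated cells none of the 10 members passed in HDAC1cKO against WT, with limma and adjustment over all genes tested, where 0.0885% of genes passed. At an unadjusted p under 0.05 there were 2 members, Bcl2 and Bbc3, and 14.5% of all genes tested. The same 2 members were those that did not overlap between genotypes, and 22.4% of all genes tested did not. An exact permutation test of 3 against 3 samples cannot go below 0.1. The median log2 fold change of the 10 members was -0.21, against -0.03 over all genes tested.

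**Figure D3:**
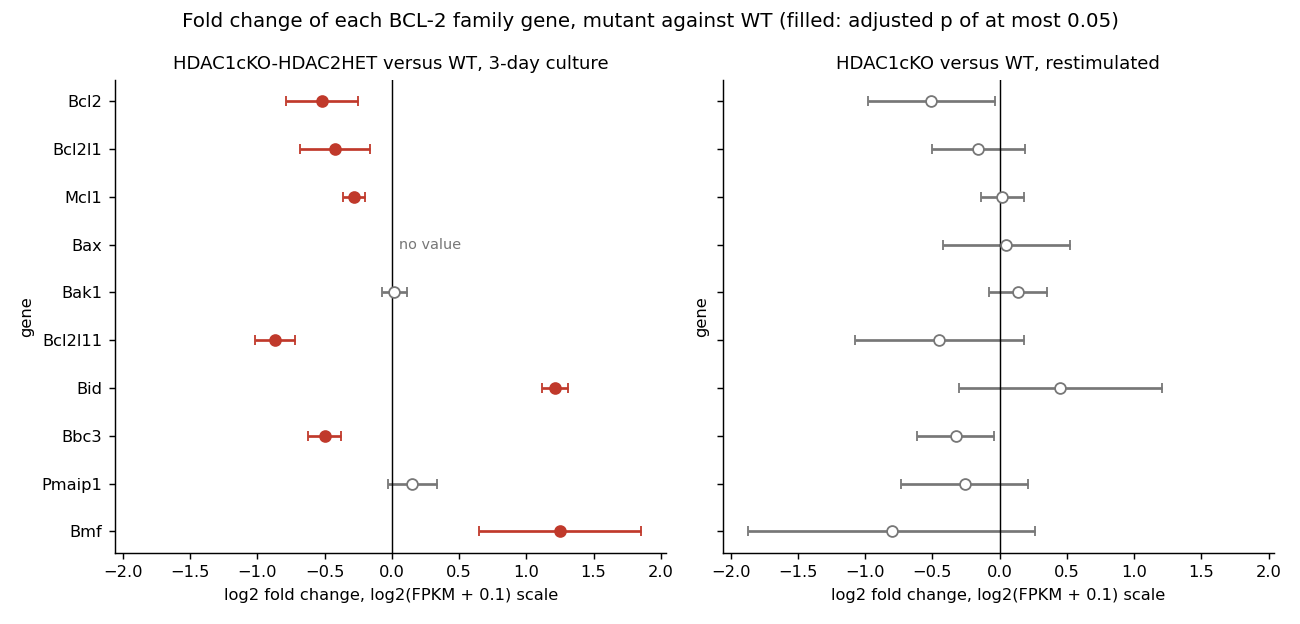
log2 fold change of each member (x axis, mutant against WT on the log2(FPKM + 0.1) scale) in both experiments; points are limma estimates, bars 95% intervals, and filled red points have an adjusted p of at most 0.05. On the left 7 of 9 points are filled; on the right none is, and the intervals are wider.

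Bcl2 was at 10.7, 8.85 and 9.32 FPKM in restimulated WT and at 8.84, 5.50 and 6.24 FPKM in HDAC1cKO samples, which leaves the groups almost touching. Its log2 fold change of -0.51 (95% interval -0.98 to -0.03, limma adjusted p = 0.327) lay near that of the first experiment. Bbc3 was at 20.3, 22.9 and 26.7 FPKM in WT and 19.2, 17.4 and 18.9 FPKM in HDAC1cKO samples, and the log2 fold change was -0.33 (95% interval -0.61 to -0.04, limma adjusted p = 0.306). Bbc3 passed when both experiments shared 1 estimate of the spread (limma adjusted p = 0.0385).

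Bcl2l11 was at 19.5, 33.8 and 22.2 FPKM in WT and 23.3, 16.1 and 15.3 FPKM in HDAC1cKO samples. WT replicate 2 stood high and HDAC1cKO replicate 1 lay among the WT samples, and the log2 fold change of -0.45 had a 95% interval of -1.07 to 0.18 (limma adjusted p = 0.473). Bid was at 6.51, 10.9 and 7.73 FPKM in WT and at 7.38, 13.6 and 14.1 FPKM in HDAC1cKO samples. Here too HDAC1cKO replicate 1 lay inside the WT range, and the log2 fold change was 0.45 with a 95% interval of -0.31 to 1.21 (limma adjusted p = 0.55). WT replicate 2 matched the 3 HDAC1cKO samples in sex. When sex entered the fit, the comparison rested on that 1 WT sample against the 3 HDAC1cKO samples, and the estimate was 0.04 for Bid and -0.91 for Bcl2l11, neither of which passed. Bmf was at 0.306, 0.709 and 0.626 FPKM in WT and 0.481, 0.184 and 0.171 FPKM in HDAC1cKO samples, with overlap between the groups (log2 fold change -0.80, 95% interval -1.87 to 0.27, limma adjusted p = 0.451).

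The other 5 members overlapped between the genotypes. Mcl1 was between 101.9 and 112.1 FPKM in WT and between 107.7 and 110.4 FPKM in HDAC1cKO samples, and the 95% interval of its log2 fold change, -0.13 to 0.18, was the narrowest of the 10. Bcl2l1 had means of 143.6 ± 20.3 and 128.8 ± 16.8 FPKM (SD, n = 3) and Bak1 of 62.9 ± 5.73 and 69.0 ± 3.55 FPKM. Bax had a locus of its own in these 6 libraries and was the most abundant member, at 142, 202.1 and 240.5 FPKM in WT and 203.1, 204.8 and 184.3 FPKM in HDAC1cKO samples, and the wide WT range left an interval of -0.42 to 0.52. Pmaip1 was at 19.4, 11.5 and 14.3 FPKM in WT and between 11.6 and 13 FPKM in HDAC1cKO samples, and its log2 fold change of -0.26 turned to 0.10 when sex entered the fit, which again rested on WT replicate 2 alone, the lowest of the WT samples (limma adjusted p = 0.582 and 0.881).

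Levels also differed between the cultures, and this was not tested. The difference cannot be told apart from the separate preparation of the 2 sets of libraries or from the sex of the mice. Bcl2 had a mean of 27.5 FPKM in 3-day WT cells and 9.62 FPKM in restimulated WT cells, where it took the eighth place. Pmaip1 was at 8.26 and 15.0 FPKM and Bcl2l1 at 105.9 and 143.6 FPKM, while Bcl2l11, Bbc3 and Bid had WT means of 24.4 and 25.2 FPKM, 22.6 and 23.3 FPKM, and 9.51 and 8.38 FPKM. For Bid the measured locus differed at its 3′ end between the 2 experiments.

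The fold changes of the 2 experiments were then compared in a single limma contrast over all 14 samples. It used 1 estimate of the spread of each gene for both experiments, although the spread was unlike. For Bid the SE was 0.04 in the first experiment and 0.31 in the second. With the spread shared in this way 1306 of 11914 genes were called in HDAC1cKO against WT, against 12 of 13558 in its own fit. The p-values of the contrast carry this limit. Of the 9 members that could be tested 2 differed, Mcl1 and Bmf, and 16% of all genes tested did. The fold change of Mcl1 was lower in the HDAC1cKO-HDAC2HET experiment by 0.30 on the log2 scale (difference -0.30 ± 0.06 SE, limma adjusted p = 0.00591), being -0.28 in one and 0.02 in the other. For Bmf the difference was 2.06 ± 0.49 (limma adjusted p = 0.0151), from a rise of 1.25 in one and a value of -0.80 that did not pass in the other. Every Bmf value was at or below 1.49 FPKM, and its difference shrank to 0.85 with a pseudocount of 1, with the call kept. The call was lost with the replicate number as a block (limma adjusted p = 0.0564), and in all 6 restimulated samples the lower Cufflinks bound of Bmf was 0. The measured Bid locus began at 120892854 in every sample of the first experiment and at 120891930 in every sample of the second. Its fold changes thus cover spans that differ at the 3′ end, where Bid overlaps Bcl2l13. Bid differed by 0.76 with a 95% interval of 0.13 to 1.39, which did not pass (limma adjusted p = 0.0979), and did pass under 4 alternatives. These were sample weights (limma adjusted p = 0.0421), the replicate block (limma adjusted p = 0.0344), sex as a covariate (limma adjusted p = 0.0417), which rests on 1 restimulated WT sample, and the fit without WT replicate 1 of the restimulated cells (difference 0.92, limma adjusted p = 0.0474). Bcl2l11 (-0.65, limma adjusted p = 0.0433) and Pmaip1 (0.59, limma adjusted p = 0.0301) passed only without WT replicate 2 of the restimulated cells. For Bcl2 the difference was -0.01 with a 95% interval of -0.49 to 0.47. The experiments differed in Hdac2 dose, in restimulation, in the sex of the mice and in the library sets at once, and these cannot be told apart.

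Genes that act around the family were followed in 9 lists of 77 genes. In the HDAC1cKO-HDAC2HET experiment 63 could be tested and 42 changed, 19 upwards and 23 downwards, which is to be read against the 51.8% of all genes tested. Their median log2 fold change was -0.03. In the HDAC1cKO experiment none of 66 tested genes passed in limma, against 0.0885% of all genes tested, and 16 had an unadjusted p under 0.05, against 14.5%.

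**Figure D4:**
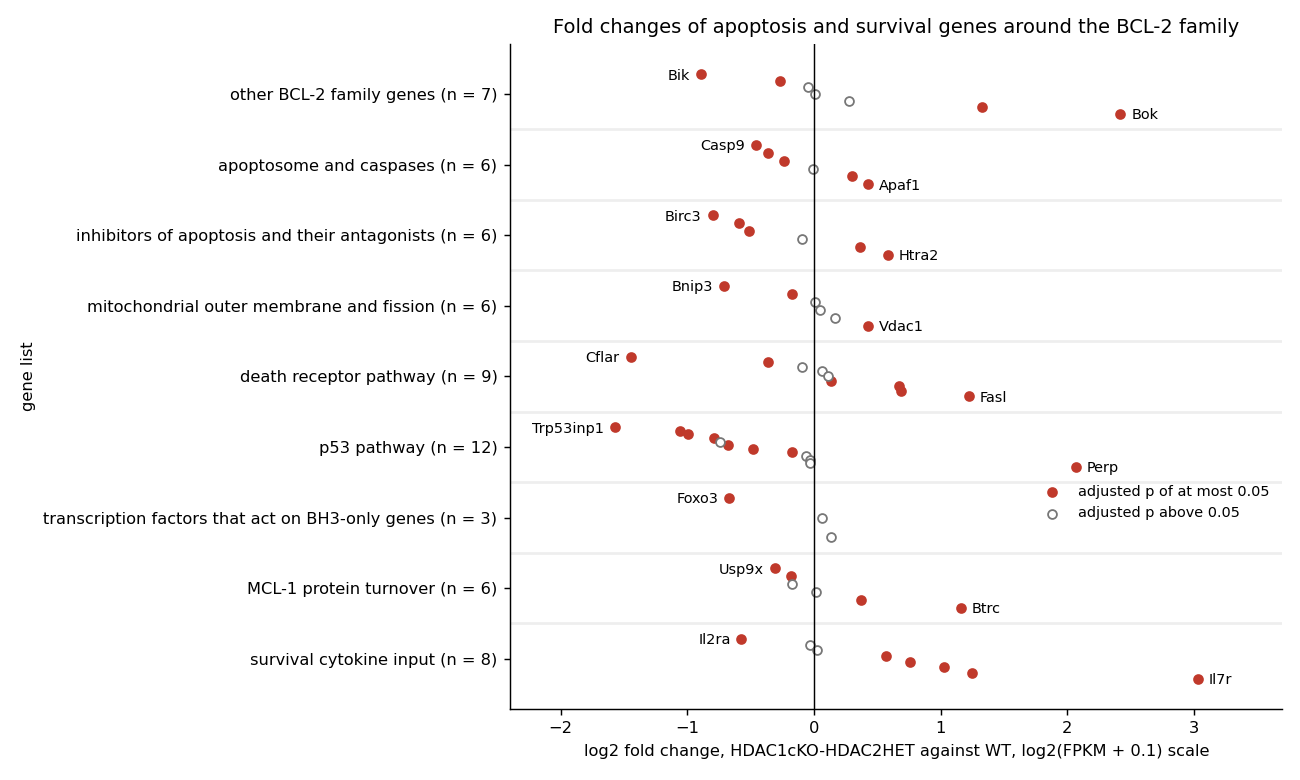
log2 fold change of each tested gene of the 9 lists in HDAC1cKO-HDAC2HET against WT (x axis, log2(FPKM + 0.1) scale; y axis, list with the number of genes tested); each point is a gene, and filled red points have an adjusted p of at most 0.05. Of the 63 points 42 are filled, 19 above 0 and 23 below, and 51.8% of all genes tested passed.

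Among 14 other BCL-2 family genes 7 could be tested, of which 2 rose, 2 fell and 3 did not pass, with a median log2 fold change of 0.01. Bok, an effector-like relative of Bax and Bak1, rose from 0.732 ± 0.11 to 4.34 ± 0.37 FPKM (log2 fold change 2.42, limma adjusted p = 3.27e-06), and Bcl2l14 rose from 1.09 to 2.89 FPKM. Bik, a BH3-only gene, fell from 3.00 ± 0.61 to 1.55 ± 0.13 FPKM (log2 fold change -0.89, limma adjusted p = 0.000928), as did Bcl2l13 (above). The Bcl2a1 genes are near-identical copies, and 3 of the 4 had no value in every sample.

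Downstream of the mitochondria, 2 of 6 apoptosome and caspase genes rose, 3 fell and 1 did not pass. Apaf1, the scaffold that cytochrome c engages, rose from 9.38 to 12.6 FPKM (log2 fold change 0.43), and Cycs, the gene of cytochrome c, from 14.4 to 17.8 FPKM (0.30), whereas the initiator Casp9 fell from 3.44 to 2.47 FPKM (-0.46) and Casp2 from 33.4 to 26.02 FPKM (-0.36). Cycs has processed pseudogenes of like sequence, so its value is uncertain. Of 6 tested inhibitors of apoptosis and their antagonists 2 rose, 3 fell and 1 did not pass. The 3 that fell were inhibitors. Birc3 went from 43.1 to 24.7 FPKM (-0.80), Birc2 from 14.9 to 9.83 FPKM (-0.60) and Xiap, which blocks caspases directly, from 16.9 to 11.9 FPKM (-0.51). Htra2, a mitochondrial protease that relieves this block, rose from 25.5 to 38.2 FPKM (0.59). The other gene that rose, named after its value was seen, was Birc5, which is itself in the inhibitor family and also acts in cell division, from 145.9 to 187 FPKM (0.36, limma adjusted p = 0.00104). Of 6 tested genes of the outer membrane and of mitochondrial fission, the channel gene Vdac1 rose from 143.3 to 192.7 FPKM (0.42), Bnip3 fell from 42.7 to 27.2 FPKM (-0.71), with 1 mutant sample at 42.1 FPKM inside the WT range, the fission gene Dnm1l fell from 25.0 to 22.2 FPKM (-0.17), and 3 did not pass.

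Upstream of Bid, 4 of 9 death receptor genes rose, 2 fell and 3 did not pass. The receptor Fas rose from 18.5 to 29.9 FPKM (log2 fold change 0.69), its ligand Fasl from 6.00 to 14.2 FPKM (1.22) and the TNF receptor Tnfrsf1a from 8.35 to 13.3 FPKM (0.67). Cflar, which encodes the caspase-8 inhibitor c-FLIP, fell from 20.4 ± 4.90 to 7.25 ± 0.37 FPKM (-1.45, limma adjusted p = 0.000145). Tradd and Fadd were named after their values were seen. Tradd rose from 13.6 to 14.9 FPKM (0.13, limma adjusted p = 0.0281), and Fadd fell from 4.34 to 3.34 FPKM (-0.37, limma adjusted p = 0.00198). Casp8 was among the 3 that did not pass (-0.09, limma adjusted p = 0.147). In the restimulated cells the log2 fold change was 0.45 for Fas, 0.35 for Fasl, 0.33 for Tnfrsf1a and -0.43 for Cflar, none of which passed.

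Of 12 p53 pathway genes 7 fell, 1 rose and 4 did not pass. Their median log2 fold change was -0.58, against -0.04 over all genes tested, of which 27.6% fell and 24.2% rose. Trp53inp1 fell from 20.1 to 6.70 FPKM (-1.57), Zmat3 from 12.5 to 5.91 FPKM (-1.06) and Phlda3 from 25.1 to 12.7 FPKM (-0.99). Perp rose from 6.17 to 25.6 FPKM (2.07). The 4 that did not pass, named after their values were seen, were Mdm2 (-0.03), Aen (-0.03), Sesn2 (-0.06) and Eda2r (-0.75). Eda2r was low, with group means of 0.31 and 0.13 FPKM. In the restimulated cells none of the 12 passed, and their median log2 fold change was -0.16, against -0.03 over all genes tested. Of 3 tested transcription factors that act on BH3-only genes, Foxo3, which is known to drive Bcl2l11 and Bbc3, fell from 13.2 ± 0.43 to 8.23 ± 0.60 FPKM (-0.67, limma adjusted p = 4.28e-05), and the others did not pass. It was at 13.9 and 10.3 FPKM in restimulated WT and HDAC1cKO cells (-0.44, limma adjusted p = 0.279).

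Of 6 genes that set the turnover of MCL-1 protein, 2 rose, 2 fell and 2 did not pass. The deubiquitinase Usp9x, which protects MCL-1, fell from 21.2 to 17.1 FPKM (-0.31), and Gsk3b, a kinase that marks it for degradation, from 13.1 to 11.6 FPKM (-0.18). The ubiquitin ligase genes Btrc and Trim17 rose, Btrc unevenly, with mutant samples between 3.22 and 10.9 FPKM. Of 8 tested genes of cytokine input 5 rose, 1 fell and 2 did not pass. Their median log2 fold change was 0.66, against -0.04 over all genes tested. Il7r, whose ligand maintains Bcl2, rose from 2.36 ± 0.60 to 19.7 ± 2.29 FPKM (3.03, limma adjusted p = 5.72e-06), Il15ra from 10.2 to 24.5 FPKM (1.25), Il2rb from 173.6 to 354.1 FPKM (1.03) and Il4ra from 45.2 to 76.0 FPKM (0.76). The gene that fell, named after its value was seen, was Il2ra, from 330.3 to 221.9 FPKM (-0.57, limma adjusted p = 0.000158). In the restimulated cells Il7r was at 3.62 and 7.08 FPKM and Il15ra at 17.6 and 36.0 FPKM, log2 fold changes of 1.02 and 1.07 that did not pass.

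The part of the CD8 and B cell marker levels given above in the HDAC1cKO-HDAC2HET changes was not tested. Leaving out any of the 8 samples kept all 7 member calls of that experiment, with Bid between 1.19 and 1.24, Bcl2l11 between -0.91 and -0.83 and Bmf between 1.02 and 1.37 on the log2 scale.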

How the data were processed

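Poly(A) RNA libraries (TruSeq Stranded mRNA) were sequenced as single reads. According to the paper's methods the authors aligned each library to mm10 with TopHat 2.0.13 and assembled it on its own with Cufflinks 2.2.1, and the deposited values are FPKM per gene or assembled locus. The submitters' processing notes also name STAR 2.5.2b, Subread 1.5.1 and edgeR; no counts were used here, and whether strand was used in the estimates is not given in the sources used here. Values are per gene, so isoforms are not separated.

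A gene without a named row was taken from the assembled locus that shared at least 0.8 of the joint span with its GENCODE M21 locus. In the first experiment 1 member was named in every sample, 4 were mixed, 4 were matched in every sample and Bax had no value. Per experiment, log2(FPKM + 0.1) of genes whose mean reached 0.1 FPKM was fitted in limma (version 3.58.1, R 4.3.3) with an intensity trend; the difference was a contrast over 14 samples. Single values were tested with 2-sided exact permutation tests. Depth was estimated from the Cufflinks bounds of low genes. In a different, overlapping selection of low genes 87.0% to 91.8% gave whole fragments within 0.05. The bounds of Bmf were 0.458 and 0.644 FPKM in 3-day WT replicate 1 and 0 and 1.52 FPKM in restimulated WT replicate 2. The cause of this unlike width was not tested. On simulated data with 200 changed genes, the fit recovered 70 of 91 2-fold and 86 of 109 4-fold changes among the 14672 genes of the first experiment (6 false calls), and 44 of 103 and 70 of 97 among the 13558 genes of the second (4 false calls). The simulated noise was normal, and 51.8% of genes passed in the real first experiment. The recovery therefore need not hold for these data.

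Samples were taken as replicates by their labels, and the samples of the first experiment were independent batches prepared on 1 day, 4 per genotype. For the second experiment the sources do not say that the cultures were separate, and p-values then measure only the spread between these samples. The members and lists were chosen with earlier results of these data known. Genes of the lists were named by a rule: Hdac1, Hdac2 and, per list, up to 4 with the largest change among those called in the first experiment. Some genes of the lists and markers are not reported here and were left out of their counts and sums. Alternatives changed the pseudocount, filter, scaling, variance model, weights, block, sex covariate and locus matching, and left out each sample in turn. Promoter sequences are from RefSeq (GRCm38.p6), with 9 of 10 members used. No cause of any difference was tested.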

Additional observations from a re-analysis of the deposited data

Results flagged for a closer look

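In groups of 4, a sample stood apart by Dixon's criterion in 6 of 96 groups examined, where chance gives about 1 in 20. Among the members, HDAC1cKO-HDAC2HET replicate 4 was high for Bcl2l11 (14.3 FPKM) and replicate 1 low for Pmaip1 (8.36 FPKM), and the summed pro-survival FPKM was high in replicate 3 (181.6). Among the other genes, 1 WT sample each was high for Bik (3.91 FPKM), Cycs (15.5 FPKM) and Il7r (3.26 FPKM).

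The fold change differed between the experiments for 2 members, by -0.30 for Mcl1 and 2.06 for Bmf on the log2 scale (HDAC1cKO-HDAC2HET minus HDAC1cKO, limma contrast with Benjamini-Hochberg adjustment), and the call for Bmf was lost with the replicate number as a block (limma adjusted p = 0.0564). The named genes around the family were chosen for a large change in the first experiment, which favours a difference, and 9 of 30 tested differed, against 16% of all genes tested. The fold change was more positive in the HDAC1cKO-HDAC2HET experiment for Bok (0.95), Apaf1 (0.66), Fasl (0.87), Perp (1.63), Trim17 (0.62), Il7r (2.01) and Il2rb (0.92). It was more negative for Birc3 (-0.70) and Cflar (-1.02). It was also more negative for Hdac2 (-0.89), which has an allele deleted in that experiment alone. The experiments also differed in restimulation, sex and library set, so these differences cannot be assigned to genotype.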

How the results depend on the processing

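The 7 member calls of the HDAC1cKO-HDAC2HET experiment kept their direction and their side of the threshold under every alternative that gave them a value, and those of the other members and comparisons moved as follows. Bak1 turned to -0.026 with quantile normalization and ranged from -0.012 to 0.051 when single samples were left out, and Pmaip1 passed at 0.25 with median centring and 0.24 with quantile normalization. In HDAC1cKO against WT, Mcl1 was -0.049 and Bax -0.0011 with quantile normalization, Bax -0.11 with sample weights, Pmaip1 0.10 and Bax -0.035 with sex as a covariate, and Bbc3 passed at -0.33 with both experiments in 1 fit; without single samples Mcl1 ranged from -0.016 to 0.053 and Bax from -0.16 to 0.22. For the difference, Bcl2 was 0.012 with median centring and Bcl2l11 0.044 with sex as a covariate, and Bid passed with sample weights (0.79) and with sex (1.17). With sex in the fit, HDAC1cKO against WT rests on WT replicate 2 alone. Without single samples Bcl2 ranged from -0.15 to 0.18, Bcl2l11 from -0.65 to -0.23, Bid from 0.46 to 0.92 and Pmaip1 from 0.22 to 0.59.

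Deviations of same-numbered samples correlated between -0.02 and 0.05, and those of other pairs between -0.06 and 0.05. With so few samples this cannot show whether same-numbered samples were prepared together. With the replicate number as a block the difference of Bmf no longer passed (2.06, limma adjusted p = 0.0564), that of Bid did (0.76, limma adjusted p = 0.0344), 5 genes were called in HDAC1cKO against WT, all 5 at least 2-fold, and no other member call changed. Among all genes, called genes in HDAC1cKO-HDAC2HET against WT numbered 1017 with named rows alone (4271 tested), and those at least 2-fold 413 with named rows, 716 with a pseudocount of 1 and 1002 with a mean FPKM of at least 1. In HDAC1cKO against WT, 12 genes were called and 10 at least 2-fold, against 6 and 6 with no variance trend, 29 and 21 with sample weights, 56 and 56 with sex, 6 and 6 with named rows, and 1306 and 263 with both experiments in 1 fit; 20 were called with a mean FPKM of at least 1, and without single samples 10 to 54 and 10 to 50, the most without WT replicate 3. The difference counted 1196 genes with sex and 54 with named rows (1881 tested), against 1912. In all, 548 of 575 member values kept direction and call. Sex could not be fitted in the first experiment, where every sample expressed Xist. With named rows alone Pmaip1 was the only member with a value. The cause of these changes was not tested.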
